A study of Mus musculus with 9 samples.

Results

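Dusp, Sprouty and Spred genes encode inhibitors that act on the mitogen-activated protein kinase (MAPK) pathways. The genes considered here are 5 dual-specificity phosphatases (Dusp1, Dusp4, Dusp5, Dusp6 and Dusp14), 3 Sproutys (Spry1, Spry2 and Spry4) and 2 Spreds (Spred1 and Spred2). They were found by gene symbol, with the transcript of the highest summed count kept for each symbol, and all 10 were present among 15149 genes and passed the filter on low counts, which left 14426 genes for testing. RNA was sequenced from ventricular tissue (right and left) of 9 wild-type C57Bl6N mice, given in the labels as 2 to 3 months old. The study's methods state an older age. The 3 groups of 3 hearts were untreated controls without a pump (Ctr, 2 females and 1 male), mice given isoprenaline at 30 mg/kg per day (ISO, 1 female and 2 males) and mice given the same isoprenaline plus phenylephrine at 30 mg/kg per day (ISO/PE, 1 female and 2 males). Both agents came from osmotic minipumps and the treated hearts were taken at 96 h. Isoprenaline is an agonist of β-adrenoceptors and phenylephrine of α1-adrenoceptors, so that ISO/PE against ISO gives the difference made by phenylephrine in the presence of isoprenaline. Ctr mice carried no pump, and pump and agent cannot be told apart in comparisons with Ctr. Sexes were unequally divided, and sex was tried as a covariate.

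Growth factor receptors and many G protein-coupled receptors activate the small GTPase Ras, which switches on the kinases Raf, MEK and ERK in turn. The phosphatases of the Dusp family remove the activating phosphates from ERK, p38 or JNK, whereas Sprouty and Spred proteins act further up, at the adaptors, Ras and Raf. Several of these genes are themselves transcribed in response to ERK or cAMP signaling, which closes a negative feedback loop, and in heart muscle the ERK and p38 branches are best known for their part in hypertrophic growth.

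The stretches of DNA before the start of transcription were examined first, since several members are known as immediate response genes. RefSeq promoter windows (build GRCm38.p6, 250 bases before to 50 bases after the start) matched 8 of the 10 members, all except Dusp4 and Spry4. The 250 bases before the start are shown for Dusp1, which carries the full cAMP response element, for Dusp5, which carries both CArG boxes found in the members (the core of the serum response element), and for Dusp6 and Spred2, the members whose call against Ctr was the same under every setting tried in ISO/PE hearts. Capitals mark matches on either strand to the cAMP response element, its core or the CArG box.
Dusp1 chr17:26508473-26508722 (minus strand): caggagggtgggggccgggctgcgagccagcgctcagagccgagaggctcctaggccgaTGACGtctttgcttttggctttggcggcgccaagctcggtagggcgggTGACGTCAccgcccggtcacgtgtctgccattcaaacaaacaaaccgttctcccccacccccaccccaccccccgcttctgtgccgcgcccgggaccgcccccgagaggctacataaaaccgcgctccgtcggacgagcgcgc
Dusp5 chr19:53528895-53529144 (plus strand): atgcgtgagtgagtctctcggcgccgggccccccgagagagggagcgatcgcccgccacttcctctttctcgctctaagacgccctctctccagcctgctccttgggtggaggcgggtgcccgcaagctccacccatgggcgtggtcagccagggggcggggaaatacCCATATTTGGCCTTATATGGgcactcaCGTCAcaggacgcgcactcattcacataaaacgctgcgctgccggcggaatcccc
Dusp6 chr10:99262981-99263230 (plus strand): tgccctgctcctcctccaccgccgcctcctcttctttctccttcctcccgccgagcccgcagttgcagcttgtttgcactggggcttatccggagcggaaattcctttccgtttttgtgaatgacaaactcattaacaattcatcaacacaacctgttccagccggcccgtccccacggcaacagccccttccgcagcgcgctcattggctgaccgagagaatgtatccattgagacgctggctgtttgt
Spred2 chr11:19924192-19924441 (plus strand): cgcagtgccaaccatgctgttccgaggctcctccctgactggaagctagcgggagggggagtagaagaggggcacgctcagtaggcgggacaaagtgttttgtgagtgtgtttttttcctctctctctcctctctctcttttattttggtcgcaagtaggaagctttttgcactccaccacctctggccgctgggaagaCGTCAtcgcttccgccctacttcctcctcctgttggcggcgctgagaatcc

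The complete cAMP response element TGACGTCA stood in the Dusp1 window at positions -143 to -136 from the start, and in 1.79% of all 32851 windows of the table. Its core TGACG, which lies within the complete element, was found in 3 of the 8 members, at -191 to -187 and within the complete element in Dusp1, at -55 to -51 in Dusp5 and at -51 to -47 in Spred2. Of all windows, 20.8% held this core. CArG boxes occurred in 1 of the 8 members, Dusp5, as the adjoining matches CCATATTTGG (-82 to -73) and CCTTATATGG (-72 to -63), compared with 1.63% of all windows. The AP-1 site TGANTCA (7.81% of all windows), the ETS site CCGGAAG (8.86%) and the glucocorticoid response element (0.475%) were in 0 of the 8. For ETS only this exact sequence was searched, so variants of the site were not counted. All 8 windows were above the median of all windows in GC content (52.7%) and in the observed to expected ratio of CpG (0.384). A match is a run of letters only, and binding was not measured.

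Total counts per heart lay between 10172248 and 14477054. Levels are given as CPM, the read count relative to the library size after scaling by the TMM method. Differences were taken from 1 edgeR quasi-likelihood fit of all 9 hearts, with adjusted p-values over all 14426 genes, and calls needed both an adjusted p under 0.05 and a log2 fold change beyond 0.6 in either direction. Of a list of ventricular cardiomyocyte genes, all 9 were detected. Their summed levels were 58204 to 63784 CPM in Ctr, 38940 to 46343 CPM in ISO and 24685 to 33738 CPM in ISO/PE hearts. Of these 9 genes, 2 were called lower in ISO and 6 in ISO/PE against Ctr, and the list did not move as one: in ISO/PE against Ctr the log2 fold changes were -1.45 for Myh6 and -1.41 for Myl2, but -0.45 for Ttn, -0.13 for Ryr2 and 0.08 for Actn2, which were not called. Atrial cardiomyocyte genes were uneven among the Ctr hearts. Myl4 lay at 12.1 to 195 CPM, Myl7 at 4.50 to 95.5 CPM and Sln at 0.75 to 65.2 CPM. The atrial gene Nppa lay at 312 to 400 CPM there and was called higher in both treated groups. How much atrial tissue each sample held was not tested. Macrophage and monocyte genes summed to 642 to 803 CPM in Ctr, 1303 to 2139 CPM in ISO and 2183 to 2927 CPM in ISO/PE, and 8 of 9 were called higher in each treated group against Ctr. Activated fibroblast genes summed to 128 to 133, 1081 to 2577 and 4041 to 5294 CPM in the same order, with 4 of 5 called higher in either treated group. For 9 endothelial genes the sums were 1923 to 2296, 1821 to 2159 and 1701 to 1788 CPM and none was called by edgeR. Of 7 general fibroblast genes, 4 were called higher and 1 lower in ISO, and 2 higher and 1 lower in ISO/PE against Ctr. Against ISO, 1 of the 7 was called higher in ISO/PE. Of 5 red cell genes, 1 was called higher in ISO, and all 5 lower in ISO/PE against Ctr and against ISO. In whole tissue fewer cells of a type and less RNA per cell cannot be told apart, and the part of these shifts in the changes of the members was not tested. On the first principal component, which held 77.6% of the variance of the 1000 most variable genes, ISO female2 (-0.42) was the treated heart nearest to Ctr (-46.0 to -42.0), and leaving it out changed no call of a member.

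After 96 h of ISO, 2 of the 10 members, Dusp5 and Dusp6, were called higher and 0 lower. Across all genes, 10.4% were called higher and 2.99% lower. By the adjusted p alone, 3 members passed, the third being Spred2, which was lower, against 24.8% of all genes. In ISO/PE hearts against the same Ctr hearts, 1 member was called higher (Dusp6) and 1 lower (Spred2), where 16% of all genes were called higher and 10.1% lower. By the adjusted p alone 5 members passed (Dusp1, Dusp6, Spry2, Spred1 and Spred2), compared with 47.1% of all genes. Those all-gene calls in ISO/PE against Ctr were split into 2309 higher and 1463 lower, and into 2730 and 1049 when libraries were scaled by their total counts only, which shifted the median log2 fold change of all genes from -0.01 to 0.11. Between ISO/PE and ISO, edgeR called 0 members, with 3.64% of all genes higher and 2.81% lower. DESeq2 and limma-voom also called 0, and 3 members (Dusp1, Spred1 and Spred2) had an unadjusted p under 0.05 in edgeR. By the adjusted p alone, Dusp1 and Spred1 passed, that is 2 of 10, against 14.4% of all genes. The median log2 fold change of the members was 0.03 in ISO against Ctr, 0.36 in ISO/PE against Ctr and 0.15 in ISO/PE against ISO, beside -0.01, -0.01 and 0.00 over all genes tested. The comparisons share hearts: Ctr is used in both treated contrasts and ISO in the first and the last.

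**Figure D1:**
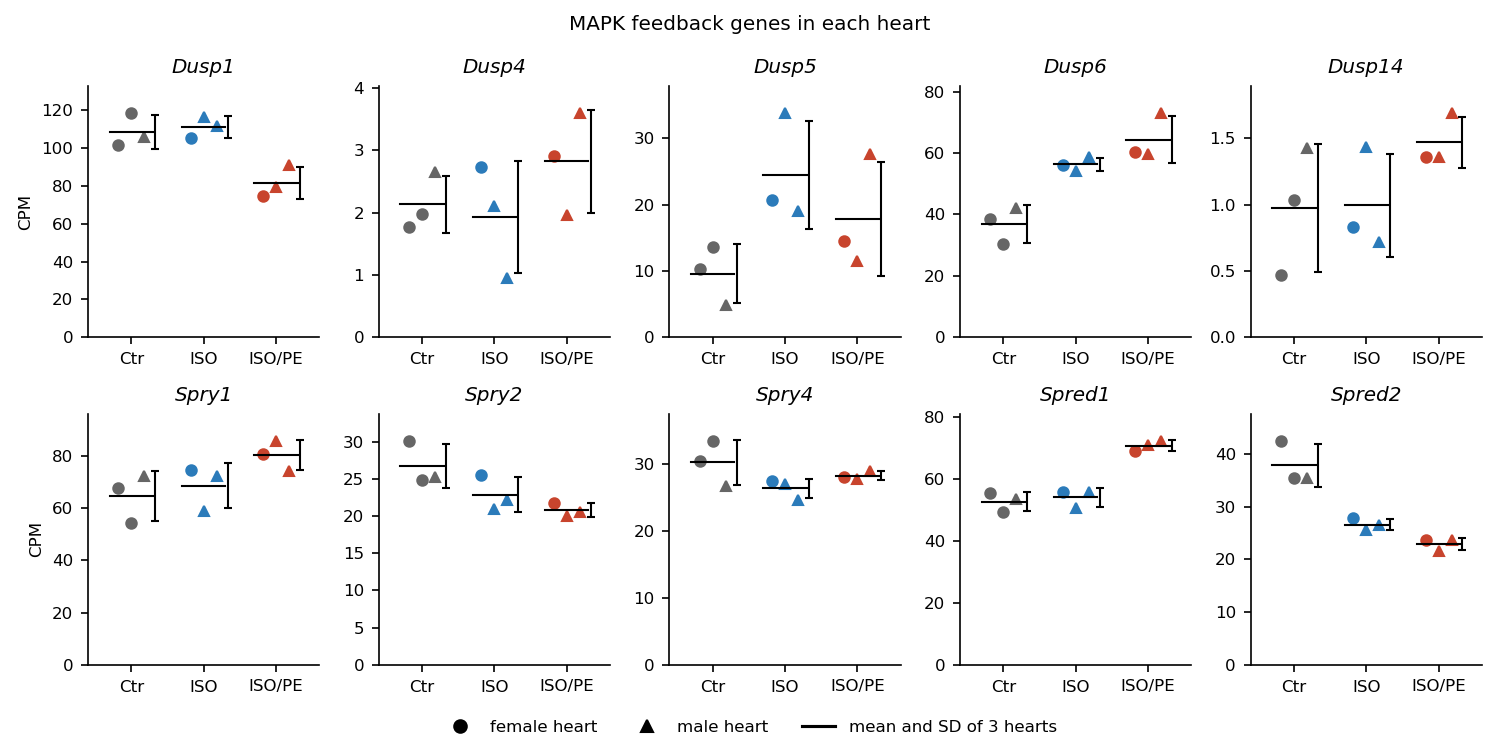
Level of each member in each heart in CPM (vertical axes from 0, own scale per gene) for Ctr, ISO and ISO/PE. Circles are female and triangles male hearts, and lines with bars show the mean and SD of 3 hearts. Dusp6 was higher in all treated hearts (54.3 to 73.1 CPM) than in any Ctr heart (30.2 to 42.1 CPM), Spred2 was lower in all treated hearts, and Dusp1 and Spred1 separated the ISO/PE hearts from the other 6. The share of all genes that separate in this way was not counted.

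Per kb of transcript, Dusp1 was the most abundant member in every group, with means of 56.1 CPM per kb in Ctr, 57.4 CPM per kb in ISO and 42.2 CPM per kb in ISO/PE. Spry1 followed, at 26.0, 27.5 and 32.2 CPM per kb, and its range did not meet that of Dusp1 in any group. In Ctr hearts Dusp6 (13.2 CPM per kb), Spred2 (13.2) and Spry2 (12.8) came next with overlapping ranges, and were followed by Spred1 (8.37), Spry4 (6.44) and Dusp5 (5.31), of which the last overlapped Spry4. Dusp4 (0.881 CPM per kb) and Dusp14 (0.679) were the lowest and overlapped each other. In ISO/PE hearts the third place belonged to Dusp6 alone (23.0 CPM per kb, range 21.3 to 26.2). There Spred2, at 8.004 CPM per kb, stood below Spred1, at 11.2, whereas in Ctr it had stood above (12.4 to 14.8 against 7.83 to 8.81 CPM per kb).

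Dusp6 encodes a cytoplasmic phosphatase that is selective for ERK. Its levels were 38.4, 30.2 and 42.1 CPM in the Ctr hearts (female1, female2 and male1), 56.1, 54.3 and 58.6 CPM in the ISO hearts (female2, male1 and male2) and 60.3, 59.6 and 73.1 CPM in the ISO/PE hearts (in the same order as for ISO, which is kept below). Every treated heart lay above every Ctr heart, and every ISO/PE heart above every ISO heart, the latter by a narrow gap (59.6 against 58.6 CPM). The share of all genes whose groups separated in this way was not counted, here or for the members below. Dusp6 rose by a log2 fold change of 0.61 (SE 0.12, adjusted p = 0.0040) in ISO and of 0.80 (SE 0.12, adjusted p = 2.84e-04) in ISO/PE, 1.53-fold and 1.74-fold. The difference between ISO/PE and ISO was 0.19 on the log2 scale (95% interval -0.07 to 0.45, adjusted p = 0.30) and did not pass. The ISO call sits just past the fold threshold, and without Ctr female2 the value was 0.47, while with sex as a covariate it was 0.57. The adjusted p stayed under 0.05 in both.

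Dusp5, a nuclear phosphatase that is also selective for ERK, carries the adjoining CArG boxes printed above. It was measured at 10.3, 13.6 and 4.89 CPM in Ctr, at 20.7, 33.8 and 19.0 CPM in ISO and at 14.5, 11.4 and 27.6 CPM in ISO/PE hearts. The ISO hearts were all above the Ctr hearts, with male1 the highest of all 9, whereas among the ISO/PE hearts male1 lay within the Ctr range. Dusp5 rose by 1.34 on the log2 scale in ISO (SE 0.38, adjusted p = 0.025, 2.53-fold with a 95% interval of 1.41 to 4.54), the largest fold change of any member. In ISO/PE against Ctr the value was 0.89 (SE 0.39, adjusted p = 0.079), and in ISO/PE against ISO -0.45 (95% interval -1.24 to 0.33, adjusted p = 0.42). This was also the most variable of the members above 3 CPM, and its coefficients of variation were 45.8% (Ctr), 33.1% (ISO) and 48.2% among the ISO/PE hearts. The ISO call was lost without Ctr female1 (1.39, adjusted p = 0.062), without Ctr male1 (1.03, adjusted p = 0.078) and without ISO male1 (1.02, adjusted p = 0.10). Another annotated gene, AC137853.2, overlaps 22.1% of the exonic bases of Dusp5 (chr19:53529145-53541809, plus strand, mm10), and since reads of both strands were counted the Dusp5 value is uncertain to that extent.

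Dusp1 encodes a nuclear phosphatase that acts on p38 and JNK as well as on ERK, and its window holds the complete cAMP response element. Levels were 101, 119 and 106 CPM in Ctr, 105, 117 and 112 CPM in ISO and 74.5, 79.7 and 91.1 CPM in ISO/PE hearts. Ctr and ISO overlapped throughout and every ISO/PE heart was below the other 6. The log2 difference was 0.03 in ISO against Ctr (95% interval -0.17 to 0.24, adjusted p = 0.83). Dusp1 fell by 0.41 in ISO/PE against Ctr (SE 0.09, adjusted p = 0.0043) and by 0.44 against ISO (SE 0.09, adjusted p = 0.013), both short of the fold threshold. The latter adjusted p was 0.052 without ISO male1 and 0.053 without ISO/PE female2.

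Dusp4, a nuclear phosphatase of ERK and JNK, and Dusp14, a small phosphatase outside the typical MAPK phosphatases, were scarce. Dusp4 was counted 12 to 49 times and Dusp14 5 to 23 times per heart. Dusp4 was at 1.78, 1.97 and 2.65 CPM in Ctr, 2.73, 2.11 and 0.95 CPM in ISO and 2.90, 1.97 and 3.60 CPM in ISO/PE, and the groups overlapped. Dusp14 was at 0.47, 1.03 and 1.43 CPM, at 0.83, 1.44 and 0.71 CPM and at 1.36, 1.36 and 1.69 CPM in the same order, again with overlap. Neither passed in any comparison. At this depth the 95% interval of ISO/PE against Ctr ran from -0.37 to 1.19 for Dusp4 and from -0.27 to 1.46 for Dusp14 on the log2 scale, so that changes past the fold threshold lay within both intervals.

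Spred2 is a membrane-bound inhibitor of Ras signaling that, like Spred1, brings the Ras GTPase-activating protein neurofibromin to the membrane. Its levels were 42.5, 35.5 and 35.5 CPM in Ctr, 27.7, 25.5 and 26.5 CPM in ISO and 23.6, 21.5 and 23.6 CPM in ISO/PE hearts. The 3 groups did not overlap and stepped down from Ctr to ISO to ISO/PE. Spred2 fell by 0.51 on the log2 scale in ISO (SE 0.10, adjusted p = 0.0031, short of the fold threshold) and by 0.72 in ISO/PE (SE 0.10, adjusted p = 1.24e-04), 0.70-fold and 0.61-fold of Ctr. Between ISO/PE and ISO the value was -0.21 (95% interval -0.43 to -0.00, adjusted p = 0.16). In ISO/PE against Ctr the call was made under all 18 alternative settings, between -0.78 and -0.61.

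Spred1, the paralog of Spred2, moved the other way in ISO/PE hearts. It was at 55.6, 49.4 and 53.5 CPM in Ctr, 55.9, 50.7 and 55.9 CPM in ISO and 69.1, 71.2 and 72.5 CPM in ISO/PE hearts. Ctr and ISO overlapped, and the ISO/PE hearts were all above the other 6. In ISO against Ctr the log2 difference was 0.04 (95% interval -0.13 to 0.21, adjusted p = 0.76). Spred1 rose by 0.42 in ISO/PE against Ctr (SE 0.08, adjusted p = 9.24e-04) and by 0.39 against ISO (SE 0.08, adjusted p = 0.0091), both below the fold threshold. Under all 18 alternatives the adjusted p of the latter stayed under 0.05, with values of 0.35 to 0.44. All these values are of the longer Spred1 transcript. In an edgeR fit of all transcripts, the shorter one was at 0.22 in ISO/PE against ISO (adjusted p = 0.47). Against Ctr it was at 0.65 in ISO/PE (adjusted p = 0.017), past both thresholds.

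Spry2 and Spry1, which bind adaptors of growth factor receptors and hold back Ras and Raf, are Sproutys of the same action. Spry2 was at 30.1, 24.8 and 25.2 CPM in Ctr, 25.5, 20.9 and 22.2 CPM in ISO and 21.8, 19.95 and 20.5 CPM in ISO/PE. The ISO/PE hearts were below all Ctr hearts and overlapped the ISO hearts. Spry2 fell by 0.36 on the log2 scale in ISO/PE against Ctr (SE 0.11, adjusted p = 0.019, short of the fold threshold), and its value in ISO was -0.22 (adjusted p = 0.17). The ISO/PE difference no longer passed with total counts only (-0.25, adjusted p = 0.10), without Ctr female1 (-0.27, adjusted p = 0.093) or without ISO/PE male1 (-0.33, adjusted p = 0.059). Spry1 was at 67.5, 54.1 and 72.4 CPM in Ctr, 74.4, 58.7 and 72.4 CPM in ISO and 80.7, 85.7 and 74.2 CPM in ISO/PE. Here the ISO/PE hearts lay above all Ctr hearts, by a narrow gap, and the log2 fold change of 0.31 (SE 0.12, adjusted p = 0.053) did not pass, although it passed the adjusted p in 5 of 18 alternatives, at most 0.42. In the annotation, 24.4% of the exonic bases of Spry1 overlap Gm42922, with the same uncertainty. Spry4, the third Sprouty, was at 30.4, 33.4 and 26.7 CPM in Ctr, 27.4, 26.9 and 24.6 CPM in ISO and 28.0, 27.7 and 28.9 CPM in ISO/PE. Its treated groups both overlapped Ctr, and all log2 differences were between -0.20 and 0.10 with adjusted p-values of 0.16 or more.

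**Figure D2:**
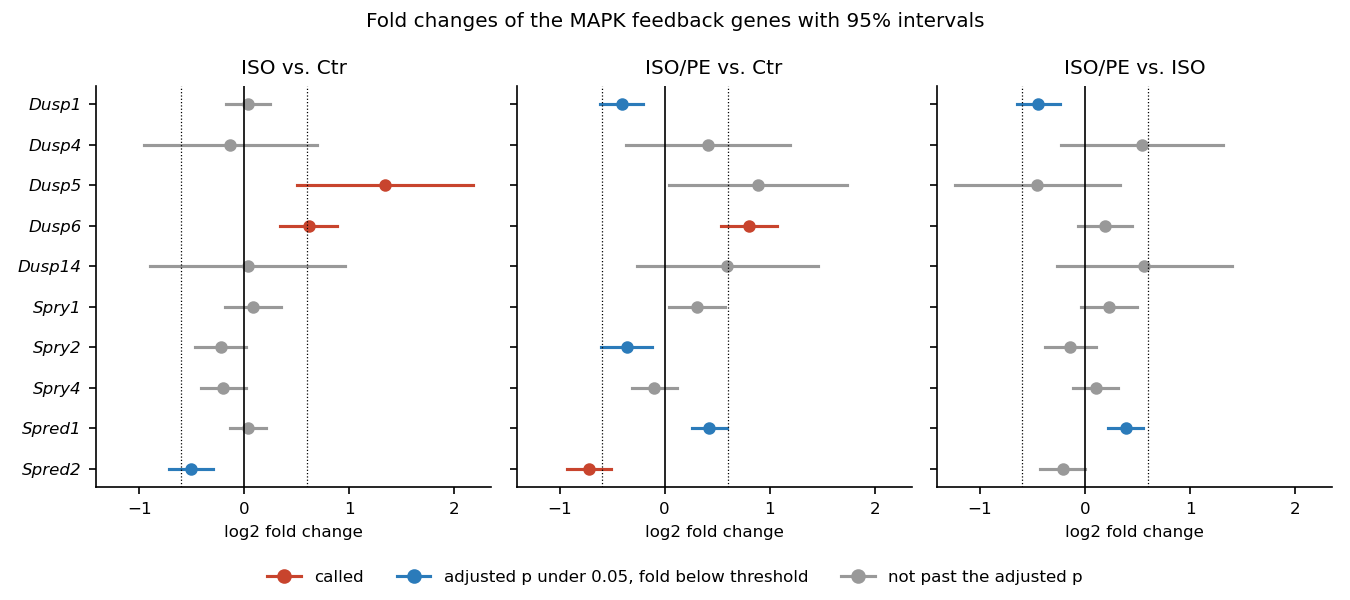
Log2 fold change of each member (horizontal axes) in ISO against Ctr, ISO/PE against Ctr and ISO/PE against ISO, with 95% intervals from the edgeR fit. Dotted lines mark the fold threshold of 0.6. Called members are red, those past the adjusted p alone blue and the others grey: Dusp5 (1.34) and Dusp6 (0.61) were called in ISO, Dusp6 (0.80) and Spred2 (-0.72) in ISO/PE, and none between the treated groups.

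Ratios within a heart do not depend on the scaling of libraries. They were formed for 4 pairs chosen after the values above were known, so they describe those values in another form. An exact permutation test of the log2 ratios was run. With 3 against 3 hearts it cannot give a p under 0.1, so it cannot decide a difference at 0.05 and no conclusion was drawn from it. The ratio of Spred1 to Spred2 counts was 1.31, 1.39 and 1.51 in Ctr, 2.01, 1.99 and 2.11 in ISO and 2.92, 3.31 and 3.07 in ISO/PE hearts. The groups were separate and in this order. The ratio of Dusp6 to Dusp1 counts was 0.378, 0.255 and 0.397 in Ctr, 0.532, 0.465 and 0.525 in ISO and 0.810, 0.748 and 0.802 in ISO/PE, again with 3 separate groups. The ratio of Spry1 to Spry2 was 2.24, 2.18 and 2.87 in Ctr, 2.92, 2.81 and 3.26 in ISO and 3.70, 4.30 and 3.62 in ISO/PE, where ISO and Ctr overlapped and ISO/PE was above both. The ratio of Dusp5 to Dusp6 was 0.268, 0.450 and 0.116 in Ctr, 0.369, 0.623 and 0.323 in ISO and 0.241, 0.192 and 0.378 in ISO/PE, and its groups overlapped in all 3 comparisons. The summed level of all 10 members was 370 ± 7.95 CPM in Ctr, 393 ± 2.92 CPM in ISO and 391 ± 22.2 CPM in ISO/PE (SD, n = 3), with every ISO heart above every Ctr heart and ISO/PE overlapping both. The dual-specificity phosphatases summed to 158 ± 6.65, 195 ± 11.8 and 168 ± 25.0 CPM, with ISO above Ctr in every heart and ISO/PE overlapping both. For the Sproutys the sums were 122 ± 8.27, 118 ± 10.5 and 129 ± 5.04 CPM, with ISO overlapping Ctr. The Spreds together were at 90.6 ± 6.75, 80.8 ± 3.96 and 93.8 ± 1.95 CPM, with every ISO heart below all others. These sums are weighted towards the most abundant members and were not tested.

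**Figure D3:**
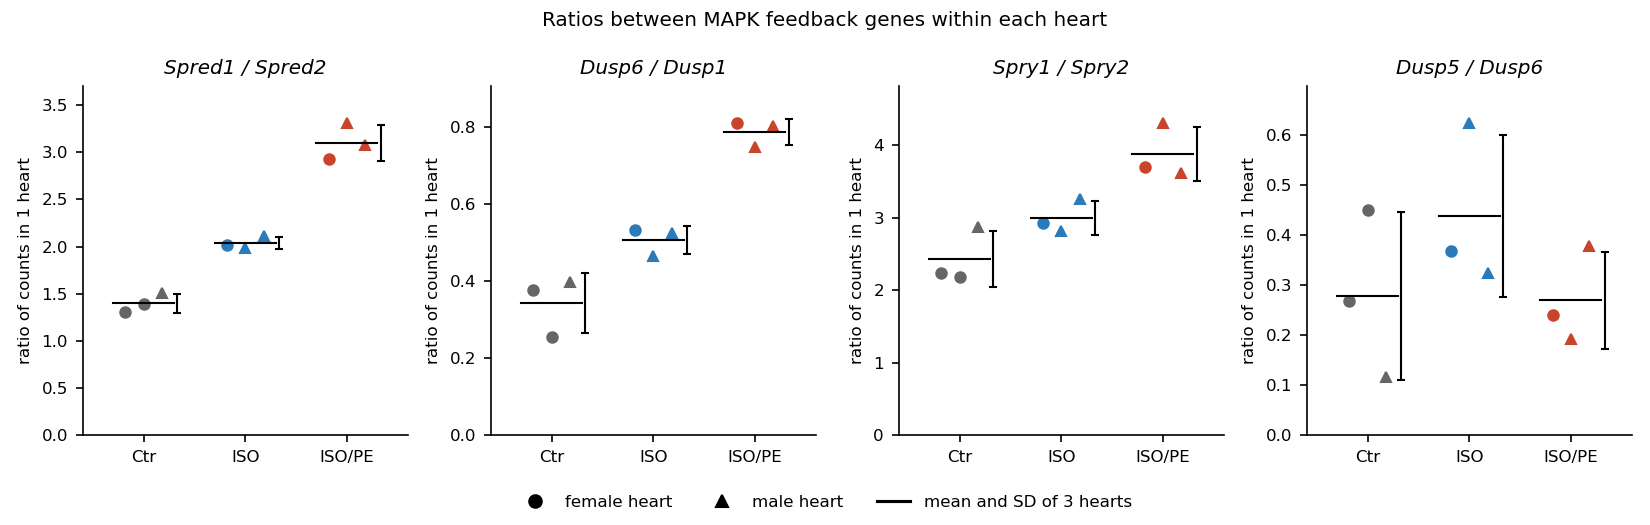
Ratio of the counts of 2 members within each heart (vertical axes from 0) for Spred1 to Spred2, Dusp6 to Dusp1, Spry1 to Spry2 and Dusp5 to Dusp6, by group. Circles are female and triangles male hearts, with the mean and SD of 3 hearts. The Spred1 to Spred2 ratio went from 1.31 to 1.51 in Ctr to 2.92 to 3.31 in ISO/PE with ISO in between, the groups do not overlap for it or for Dusp6 to Dusp1, and they overlap in every comparison for Dusp5 to Dusp6.

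Other inhibitors of the same pathways were counted from lists. Of all genes, 10.4% were called higher and 2.99% lower in ISO, 16% and 10.1% in ISO/PE against Ctr, and 3.64% and 2.81% against ISO. Counts near these shares, here and in the lists further below, are no result about a list. Of 6 tested MAPK phosphatases outside the members, 0 were called by edgeR in ISO against Ctr and 2 were called lower in ISO/PE against Ctr: Dusp7, a cytoplasmic phosphatase of ERK (94.2 ± 13.5 CPM in Ctr and 60.3 ± 9.37 CPM in ISO/PE, SD, n = 3), by 0.64 on the log2 scale, and Dusp10, which acts on p38 and JNK (12.8 ± 2.30 and 7.54 ± 1.40 CPM), by 0.76. Of 14 other dual-specificity phosphatases tested, Dusp28 (log2 fold change -0.65) and Epm2a, the glycogen phosphatase laforin (-1.28), were called lower in ISO/PE against Ctr, and Dusp18 (-0.87) and Epm2a (-0.77) against ISO. Among 19 tested feedback genes of receptor tyrosine kinases and Ras, 2 were called higher in ISO, 5 in ISO/PE against Ctr and 2 against ISO, and 0 lower. Dok1, an adaptor that recruits a Ras GTPase-activating protein, went from 5.83 ± 1.42 CPM in Ctr to 13.6 ± 2.84 in ISO and 27.5 ± 1.71 in ISO/PE (SD, n = 3) and was called in all 3 comparisons, as was Socs3, an inhibitor of cytokine receptor signaling (11.05 ± 0.60, 24.4 ± 5.51 and 45.1 ± 12.4 CPM). Spred3, the third Spred gene (log2 fold change 0.91, adjusted p = 0.0030, at 6.49 ± 0.53 CPM in ISO/PE), and Errfi1, an inhibitor of the EGF receptor (0.97, adjusted p = 0.0086), were called higher in ISO/PE against Ctr.

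For the kinases themselves few calls were made. Of 27 genes of the ERK cascade, 0 were called in ISO, and in ISO/PE against Ctr the adaptor Shc1 (0.66) and the kinase Rps6ka1 (0.62) were called higher and Rps6ka2 lower (-1.21 on the log2 scale). Against ISO, Rras2, a Ras-related GTPase, was called higher (0.97) and Rps6ka2 lower (-0.87). Of 20 tested genes of the p38 and JNK cascades, the p38-activating kinase Map2k6 was called lower in ISO (-0.66) and in ISO/PE (-0.73) against Ctr, and Rps6ka5, a nuclear kinase downstream of p38 and ERK, in ISO/PE against Ctr (-0.87) and ISO (-0.66). Of 20 tested genes known to be transcribed in response to ERK, 7 were called higher and 2 lower in ISO, 11 higher and 1 lower in ISO/PE against Ctr, and 9 higher and 0 lower in ISO/PE against ISO. Their median log2 fold changes were 0.40, 0.81 and 0.57. Etv4, an ETS transcription factor, averaged 0.64 ± 0.28 CPM in Ctr and 6.53 ± 1.84 CPM in ISO/PE (SD, n = 3), with 2.91 CPM in ISO, and the membrane protein gene Emp1 at 135 ± 14.0, 380 ± 62.7 and 572 ± 25.9 CPM. The growth factor gene Ereg was at 0.125 ± 0.143, 1.67 ± 0.75 and 4.87 ± 1.83 CPM and the cytokine gene Lif at 0.91 ± 0.46, 1.60 ± 0.39 and 3.98 ± 1.85 CPM. Of the 10 members, 0 were called in ISO/PE against ISO by edgeR, where 3.64% of all genes were called higher and 2.81% lower. At such shares, 0 calls among 10 genes is no result about the members. The difference between the lists was not tested.

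**Figure D4:**
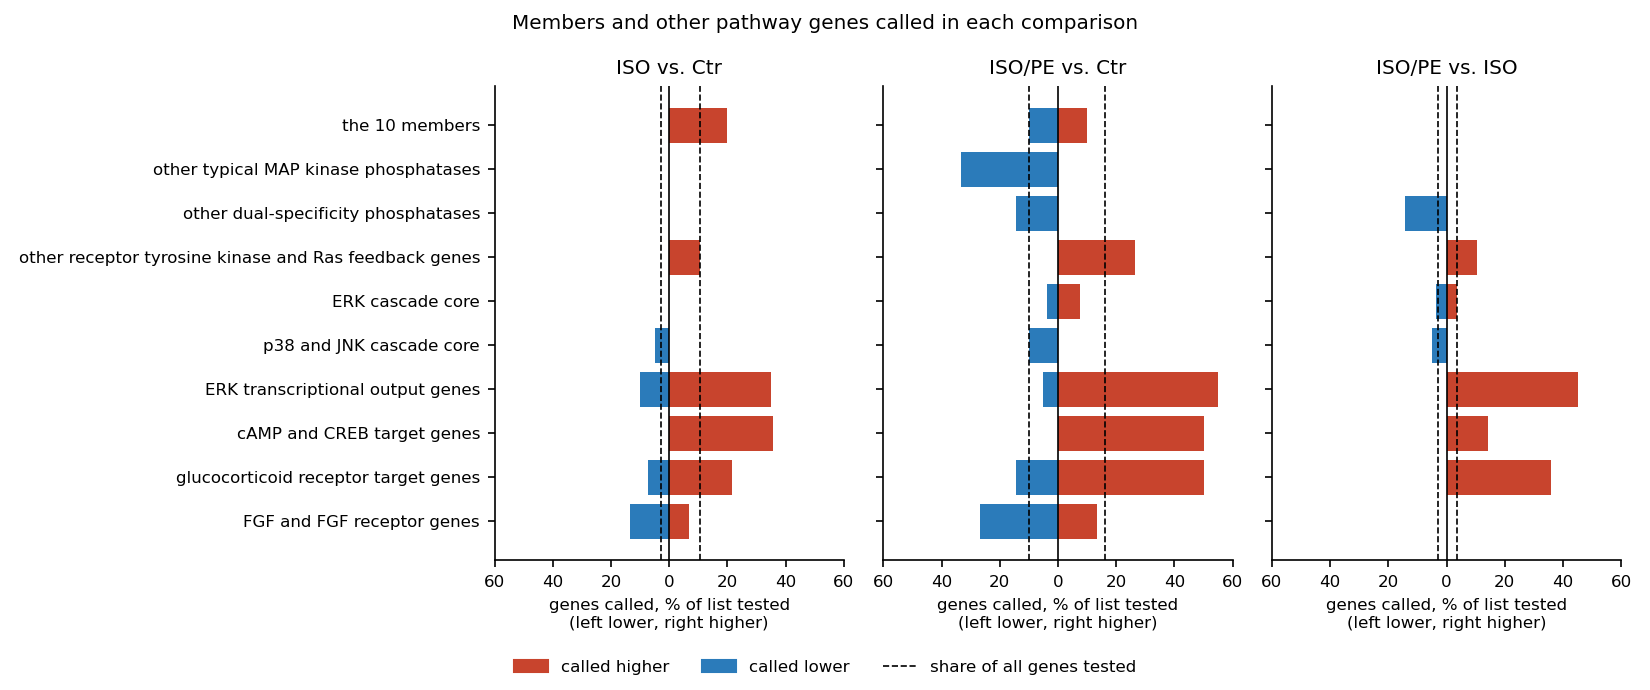
Share of each list's tested genes that was called higher (red, to the right) or lower (blue, to the left), in percent, in ISO against Ctr, ISO/PE against Ctr and ISO/PE against ISO. Dashed lines give the share of all genes tested (10.4% and 2.99%, 16% and 10.1%, 3.64% and 2.81%). Genes known to respond to ERK were called higher in 7, 11 and 9 of 20, and the members in 2, 1 and 0 of 10.

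The last lists concerned regulators whose motifs were searched for and the receptors upstream. Of 14 cAMP and CREB target genes, 5 were called higher in ISO, 7 in ISO/PE against Ctr and 2 against ISO, and 0 lower. The nuclear receptor gene Nr4a1 (1.15 in ISO and 1.39 in ISO/PE), the AP-1 gene Fosb (1.11 and 1.57), the stress factor gene Atf3 (2.56 in ISO/PE, adjusted p = 2.05e-04) and Nr4a3 (1.78 in ISO/PE) were among them. Dusp1, with its complete cAMP response element, was not called in any comparison. Short of the fold threshold, its log2 fold change in ISO/PE was -0.41 against Ctr (edgeR adjusted p = 0.0043) and -0.44 against ISO (adjusted p = 0.013). Regulation through the element was not tested. Of 14 glucocorticoid receptor target genes, 3 were called higher and 1 lower in ISO, 7 higher and 2 lower in ISO/PE against Ctr and 5 higher against ISO. Metallothionein Mt2 (1.24, 2.10 and 0.85 in the order of the comparisons) and the cell cycle inhibitor gene Cdkn1a (1.06, 1.88 and 0.82) were higher throughout. Angptl4, an inhibitor of lipoprotein lipase, was lower in ISO (-1.13) and higher in ISO/PE than in ISO (1.76), and the transcription factor gene Klf9 was lower in ISO/PE (-1.15). Of 15 tested fibroblast growth factor and receptor genes, 1 was called higher and 2 lower in ISO, 2 higher and 4 lower in ISO/PE against Ctr, and 0 against ISO by edgeR. Fgf1 averaged 324 ± 31.7 CPM in Ctr, 184 ± 7.42 CPM in ISO and 173 ± 23.9 CPM in ISO/PE (SD, n = 3). Fgf16 (-0.65 and -0.94) was lower in both treated groups, and Fgf13 (-0.99) and Fgf10 (-1.74, under 1 CPM in every group mean) in ISO/PE against Ctr. Those called higher were the receptor gene Fgfr1, in both treated groups against Ctr, and Fgf18, in ISO/PE against Ctr.

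**Figure D5:**
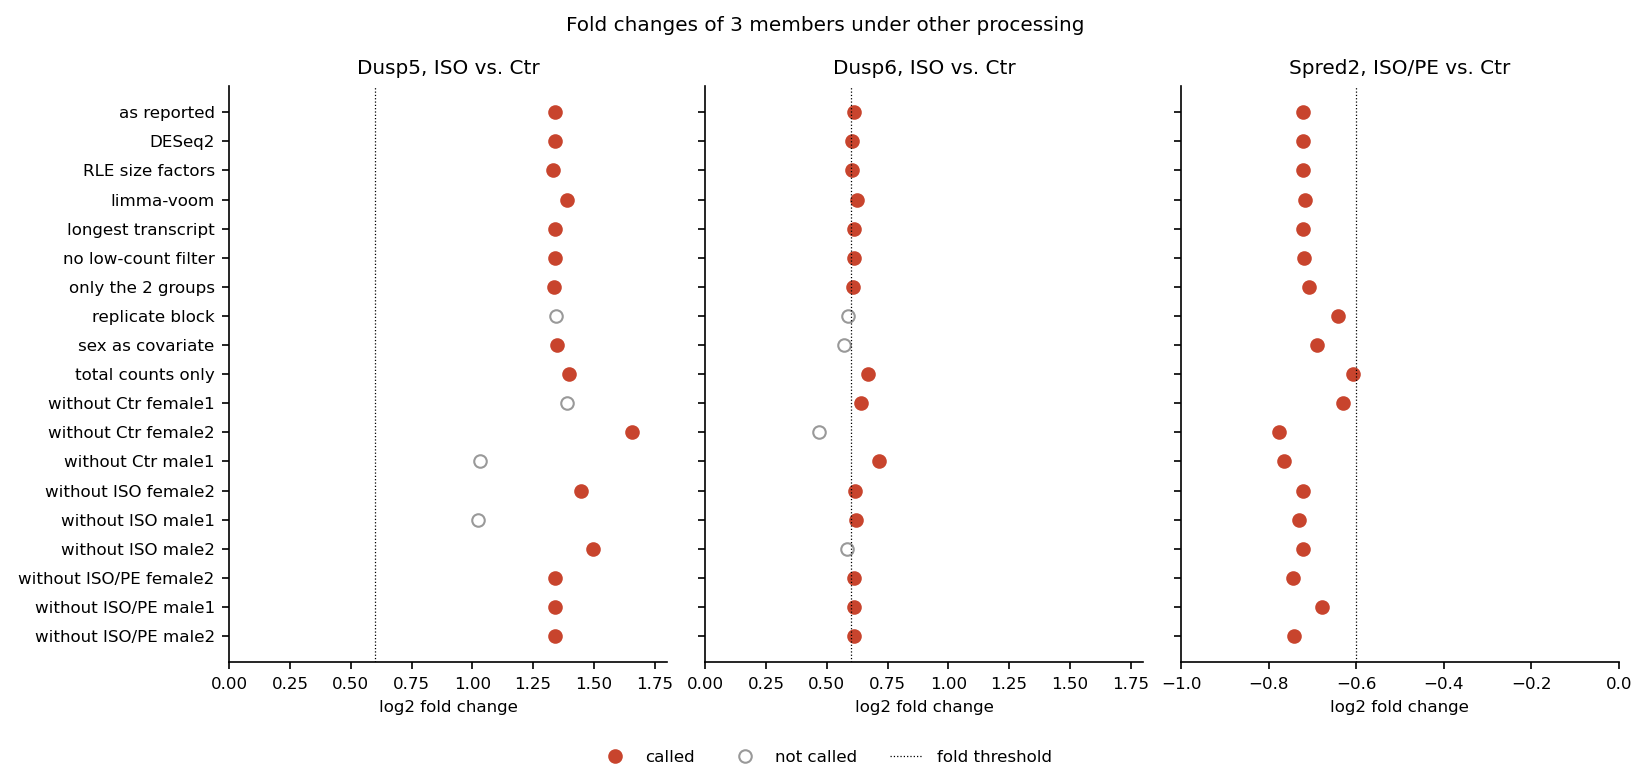
Log2 fold change (horizontal axes) of Dusp5 and Dusp6 in ISO against Ctr and of Spred2 in ISO/PE against Ctr under the reported settings and each alternative (vertical axis). Filled points were called and open points not, and the dotted line is the fold threshold. Dusp5 ranged from 1.02 to 1.66 and Dusp6 from 0.47 to 0.72, with 4 of 18 alternatives not called for each, whereas Spred2 was called in all.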

How the data were processed

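The authors prepared RNA from ventricular tissue, and the files hold raw counts per RefSeq transcript, deposited with transcript length in 2 tables of 6 hearts each: 1 with ISO and Ctr hearts and 1 with ISO/PE and ISO hearts. Alignment with STAR to mm10 is stated, the counting tool is given as featureCounts in the submitters' processing notes and as analyzeRepeats.pl in the study's methods, and the authors tested with DESeq2; no version of these tools is named in the sources used here. Columns holding TMM and RPKM values and the fold changes and p-values of the authors' comparisons were not used. The tables were joined on transcript identifier (29889 shared transcripts, with equal counts of the ISO hearts in both), and the transcript of the highest summed count was kept per symbol, which left 15149 genes.

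Counts were fitted with edgeR 4.0.16 (R 4.3.3; TMM, filterByExpr by group, glmQLFit and glmQLFTest, 9 hearts, no covariate), leaving 14426 genes, with Benjamini-Hochberg adjustment. A call needed an adjusted p under 0.05 together with a log2 fold change beyond 0.6 in size, as in the study. Fitted intervals are 95% intervals. Each sample was taken as 1 mouse, named by sex and number in the labels. Low counts (5 to 23 for Dusp14) limit precision. Alternatives were DESeq2 1.42.0, limma-voom (limma 3.58.1), other scaling, the longest transcript, no filter, only the 2 groups compared, sex as covariate, a replicate block and leaving out each heart; the fit of all transcripts together was added after seeing the data. The fit was tested on simulated data. Promoter windows came from RefSeq (GRCm38.p6) and gene overlaps from GENCODE on the same build.

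The members, lists and tests were chosen with earlier results of these data known. Named were all 10 members and, of each list, the called genes with the largest absolute fold changes, at most 4, with Fgfr1 and Fgf18 added. Genes correlated with a member called between ISO/PE and ISO were to be named too, and no member was called there.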

Additional observations from a re-analysis of the deposited data

How the results depend on the processing

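Of 570 values of single members under alternative processing, 547 kept their direction and their call (adjusted p and fold together), 8 calls were lost, 3 were gained and 12 values near 0 changed sign, none of them called. In ISO against Ctr, 1 member was called instead of 2 with sex as a covariate, and 1 to 2 when single hearts were left out (1 without Ctr female1, Ctr female2, Ctr male1, ISO male1 or ISO male2). Without a fold threshold, 5 members passed in ISO/PE against Ctr and 2 in ISO/PE against ISO. Dusp5 in ISO/PE against Ctr was called with total counts only (0.997, adjusted p = 0.049), without Ctr female2 (1.21, adjusted p = 0.0499) and without ISO/PE male1 (1.122, adjusted p = 0.039), over a range of 0.43 to 1.21 and adjusted p-values of 0.039 to 0.34 across its alternatives. Leaving out single hearts moved Dusp5 in ISO between 1.02 and 1.66 and Dusp6 between 0.47 and 0.72. Changes of sign in ISO against Ctr were, over the hearts left out, Dusp1 from -0.019 to 0.083, Dusp4 from -0.48 to 0.19, Dusp14 from -0.33 to 0.39, Spry1 from -0.048 to 0.17 and Spred1 from -0.028 to 0.075. Dusp14 was at -0.10 with sex as a covariate, and Spry4 in ISO/PE against Ctr at 0.016 with total counts only. By the adjusted p alone, the members that also crossed the threshold were Spry1 and Spry2 in ISO/PE against Ctr and Dusp1 in ISO/PE against ISO, as given above. The causes were not tested.

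With the replicate block, 0 members were called in ISO against Ctr by edgeR: Dusp5 was at 1.34 (adjusted p = 0.14) and Dusp6 at 0.59 (adjusted p = 0.037). Spry2 in ISO/PE against Ctr was at -0.25 (adjusted p = 0.16), and Dusp1 (-0.057) and Dusp14 (-0.29) in ISO against Ctr changed sign. The label female1 occurs only in Ctr and male2 only in the treated groups. With the block, Ctr female1 therefore adds nothing to the comparisons with Ctr, which rest on fewer hearts. Why calls were lost with the block was not tested. Correlations of deviations between hearts sharing a label (female2, male1, male2) were 0.003 to 0.18 in ISO and Ctr and 0.04 to 0.17 in ISO/PE and Ctr. In ISO/PE and ISO they were -0.12 to 0.01. Between hearts of different labels they ran from -0.21 to 0.16, -0.20 to 0.10 and -0.10 to 0.14 in the same order. So few correlations cannot show whether the labels pair the hearts. With 3 hearts per group and counts of 5 to 49 per heart, even changes near the fold threshold could go undetected for Dusp4 and Dusp14. Dusp14 at 0.60 in ISO/PE against Ctr had an edgeR adjusted p of 0.24. In the test of sex by treatment, where each treated group has 1 female, no member passed.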

Other observations

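The members have 14 transcripts in the tables. The 4 transcripts of Spry1 gave near-equal counts in each heart. Spred1 has a long transcript of 6308 bases, used above, and a short one of 1999 bases. The short transcript was counted 87, 62 and 91 times in the Ctr hearts, 153, 126 and 114 times in ISO and 153, 156 and 199 times in ISO/PE. In a fit of all 28724 transcripts as rows of their own, chosen after seeing the data, its log2 fold change was 0.65 in ISO/PE against Ctr (SE 0.20, edgeR adjusted p = 0.017) and 0.44 in ISO against Ctr (SE 0.20, adjusted p = 0.13). The former passed both thresholds of a call. The long transcript was at 0.44 (adjusted p = 7.81e-04) and 0.04 (adjusted p = 0.73). In ISO/PE against ISO the short transcript was at 0.22 (SE 0.19, adjusted p = 0.47) and the long one at 0.39 (SE 0.08, adjusted p = 0.0086). Whether the transcripts differed in their response was not tested. Their exons were not compared, and reads of any exons they share may have been counted for both.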
